A study of Mus musculus with 20 samples.

Results

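Complement is a system of blood and tissue proteins in which a chain of proteases marks surfaces with fragments of C3 and releases small peptides that call in immune cells. The complement genes described here were 33 genes chosen by symbol for their place in that system, as components, receptors or regulators, and 31 of them were among the 14793 genes measured in the knee joints of 20 mice. Cfb and Cfi were not analysed here. By role, the 31 genes were 6 of the classical pathway, 4 of the lectin pathway, 5 of C3 and the convertases, 3 of the terminal pathway, 6 regulators and clearance proteins, and 7 receptors.

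All mice were 12-week-old male C57BL/6Nci animals in which the medial meniscus of the right knee was destabilised by surgery (DMM), a model of osteoarthritis. Control joints received needle insertion alone, without cells or fluid, so that the cells and the injected saline cannot be told apart in any comparison with control. The other joints received murine adipose-derived mesenchymal stromal cells (MSC) at weeks 3 and 5 after surgery, either non-activated (MSC), activated beforehand with polyinosinic-polycytidylic acid (pIC), an agonist of Toll-like receptor 3 (TLR3-MSC), or activated with 2′,3′ c-GAMP, which triggers the STING pathway (STING-MSC). Each group had 10 mice, and the joints of 5 of them were sequenced as separate samples. The cells came from a single donor pool and from the same species as the host, so transcripts of injected and host cells cannot be told apart. The methods and the results of the study give different collection times, and the interval between injection and collection is therefore not stated here. The comparisons ask whether the injected cells, and their activation, went with different complement transcript levels in the joint.

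The values are normalized counts, that is, read counts per gene divided by a size factor of each joint, and the joints held 27955496 to 52529973 reads on the measured genes. Markers of joint tissues were present in all joints, with all 6 chondrocyte, 5 osteoblast and 10 fibroblast and synovial markers measured and none at 0. The tissue also held muscle and marrow cells. The summed normalized counts of 6 skeletal muscle markers ranged from 749328 to 3180806 and those of 12 neutrophil markers from 402229 to 980385. In bulk tissue, fewer cells of a type and less RNA per cell cannot be told apart.

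Complement starts on antibody complexes and debris through C1q (classical pathway), on sugars through collectins and ficolins (lectin pathway), or by slow self-activation that factor D and properdin sustain (alternative pathway). All routes meet at C3, continue to C5 and end in a membrane pore built from C5b to C9, while the peptides C3a and C5a act on receptors of myeloid cells. The liver supplies most circulating complement, whereas macrophages make C1q, adipocytes make factor D (also named adipsin), and stromal cells make C1r, C1s, C3 and C4. Of 6 hepatocyte markers only 2 were analysed, and their summed level lay between 37.5 and 548 normalized counts.

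The complement genes called higher than in control joints belonged to C3 and the convertases, the terminal pathway and the receptors. The roles were not compared by a test. C3, the protein on which all routes meet, and both C5a receptors, C5ar1 and C5ar2, were higher in MSC, TLR3-MSC and STING-MSC joints alike, by 1.26- to 1.52-fold. C7, a pore component, was 2.71-fold higher in TLR3-MSC and 2.97-fold higher in STING-MSC joints. Itgam and Itgb2, the 2 chains of complement receptor 3, were 1.29- to 1.42-fold higher in MSC and STING-MSC joints. Cfp in MSC joints and Cfd in TLR3-MSC joints were called higher as well. Both calls were lost in some other settings, as was that of C5ar2 in TLR3-MSC joints. With some single joints left out, these calls were lost too. So were those of Itgam in STING-MSC joints and of Itgb2 in MSC and in STING-MSC joints. The C1q genes, the regulators and clearance proteins, and C3ar1 did not pass the test in any comparison. Between the 3 MSC treatments none of the 31 genes passed it. A call here is an unadjusted *p* of at most 0.05 in limma fitted over all 20 joints on log2(normalized count + 1), and all fold changes are on that scale.

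Against control, 6 of the 31 genes were called in MSC joints (19.4%, against 8.55% of all genes tested), 5 in TLR3-MSC joints (16.1%, against 3.58%) and 7 in STING-MSC joints (22.6%, against 12.2%). All were higher except Masp1 in STING-MSC joints, that is 6, 5 and 6 higher, beside 5.64%, 2.68% and 6.54% of all genes higher in the same comparisons, and 1 lower, beside 5.69%. The same control joints enter the 3 comparisons, so these are not independent of each other. Control replicate 1 was the highest control joint for several of the called genes, and without it 8, 6 and 9 genes were called in the same order of comparisons, while the share of all genes called rose to 11.2%, 5.48% and 15.7%. After adjustment over all genes none of the 31 passed an FDR of 0.05 by limma or by edgeR with all 20 joints, and the lowest limma value was 0.118, for C5ar1 in MSC joints. That gene passed without control replicate 1 (limma FDR = 0.0309, with 0.176% of all genes) and without MSC replicate 2 (limma FDR = 0.0454, with 0.311% of all genes). Of all genes, 0.00676% passed by limma in MSC, 0% in TLR3-MSC and 0% in STING-MSC joints. By DESeq2, C5ar1 (FDR = 0.00629) and C5ar2 (FDR = 0.0415) passed in MSC joints, and C3 (FDR = 0.0170) and C5ar1 (FDR = 0.0430) in STING-MSC joints, where 0.73% and 0.575% of all genes passed by the same tool. No complement gene had non-overlapping groups in a comparison with control, where 1.11%, 0.825% and 2.17% of all genes did for MSC, TLR3-MSC and STING-MSC. The median log2 fold change over the 31 genes was 0.02 in MSC, 0.13 in TLR3-MSC and 0.07 in STING-MSC joints, beside -0.04, -0.01 and 0.01 over all genes. Across the 4 groups together, C3, C7, C5ar1, C5ar2 and Itgam were called (F test of limma, 5 of 31, against 6.42% of all genes).

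**Figure D1:**
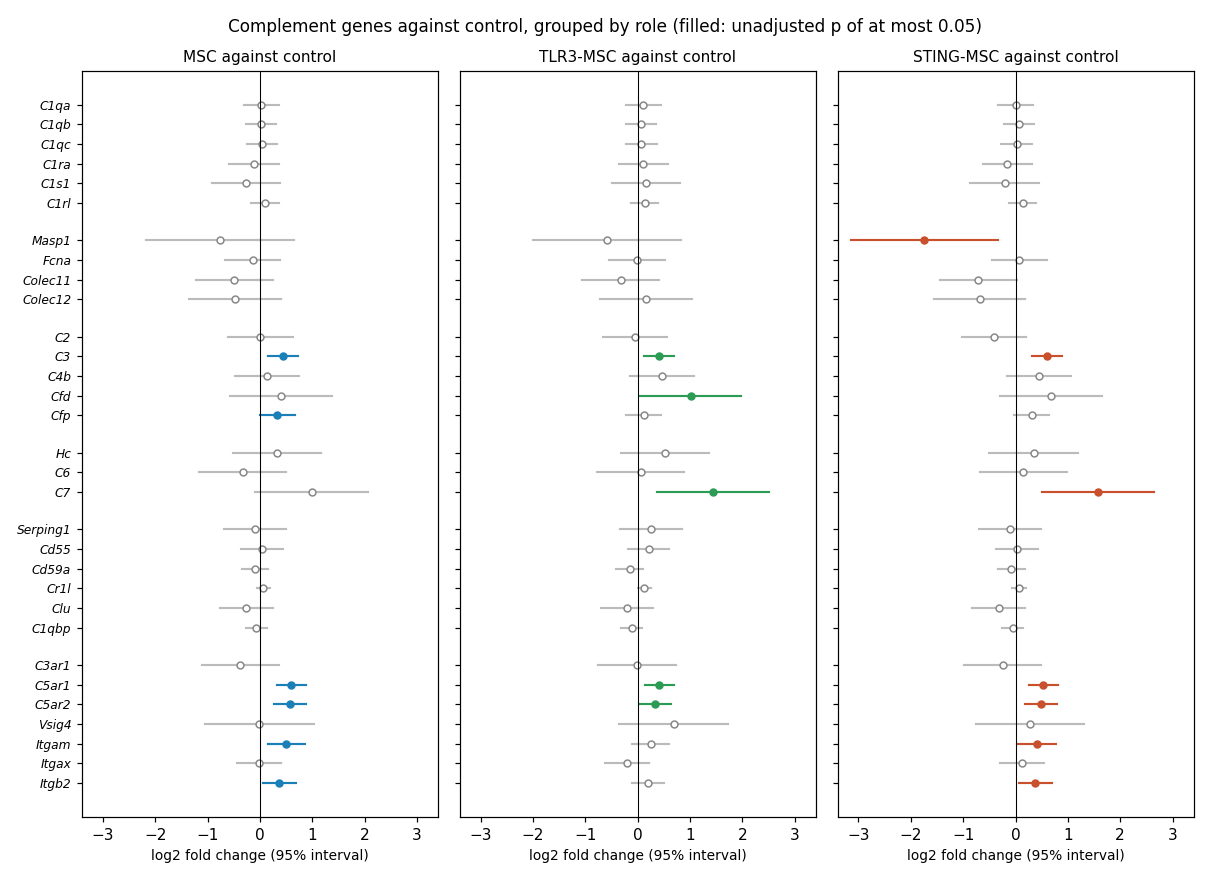
Log2 fold change of each of the 31 complement genes against control (x axis, one panel per treatment) with its 95% interval, with genes on the y axis grouped by role from the C1 complex at the top to the receptors at the bottom and filled coloured points for an unadjusted p of at most 0.05. C3, C5ar1 and C5ar2 lie to the right of 0 in all 3 panels, C7 is filled for TLR3-MSC and STING-MSC, and the C1q genes and regulators sit at or near 0.

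C3 (ENSMUSG00000024164, chr17:57510970-57535137 in GRCm39) is cleaved into the opsonin C3b and the peptide C3a. Its normalized counts were 16773, 12211, 10169, 12987 and 10671 in control joints and 19489, 15693, 17468, 15564 and 15762 in MSC joints. They were 17672, 14376, 18264, 19174 and 13276 in TLR3-MSC and 18938, 15252, 20929, 19896 and 19431 in STING-MSC joints. Control replicate 1 was as high as the treated joints, and the other 4 control joints lay below all joints of every treated group. By limma, the log2 fold change against control was 0.44 ± 0.14 (SE, *p* = 0.0045) in MSC, 0.41 ± 0.14 (SE, *p* = 0.00737) in TLR3-MSC and 0.60 ± 0.14 (SE, *p* = 0.000276) in STING-MSC joints, with exact two-sided permutation *p* of 0.0317, 0.0397 and 0.0159. The smallest exact *p* that 5 against 5 joints allow is 0.00794. C3 was called under every other setting and with any joint left out. The difference between STING-MSC and MSC joints was 0.17 with a 95% interval from -0.12 to 0.45.

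C5ar1 (ENSMUSG00000049130, chr7:15980668-15993466 in GRCm39) is the main receptor of C5a and draws neutrophils and monocytes towards it, and C5ar2 (ENSMUSG00000074361, chr7:15968510-15978080 in GRCm39) is another C5a receptor, encoded beside it. Control joints had 2699, 2005, 2012, 1843 and 1652 normalized counts of C5ar1, and MSC joints had 3612, 2569, 3239, 3578 and 2474. The TLR3-MSC joints had 2719, 2593, 2583, 3094 and 2489, and the STING-MSC joints 2992, 2330.1, 3142, 2991 and 3197. As for C3, control replicate 1 was the highest control joint and overlapped the treated groups, the other 4 control joints lay below all treated joints, and STING-MSC replicate 2 was low in its group. For C5ar1 the log2 fold change was 0.60 ± 0.13 (SE, *p* = 0.00022) in MSC, 0.42 ± 0.13 (SE, *p* = 0.00524) in TLR3-MSC and 0.53 ± 0.13 (SE, *p* = 0.00072) in STING-MSC joints, with exact permutation *p* of 0.0238, 0.0317 and 0.0159. These calls held under every other setting and leave-out.

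For C5ar2 the normalized counts were 406, 324, 259, 291 and 284 in control and 555, 391, 449.7, 485 and 435 in MSC joints. In TLR3-MSC joints they were 373, 371, 329.8, 525 and 372, and in STING-MSC joints 448, 339, 459, 402 and 539. The groups overlapped only through control replicate 1, and the other 4 control joints lay below all treated joints. Against control, log2 fold changes of C5ar2 were 0.57 ± 0.15 (SE, *p* = 0.00107) in MSC, 0.33 ± 0.15 (SE, *p* = 0.038) in TLR3-MSC and 0.48 ± 0.15 (SE, *p* = 0.00415) in STING-MSC joints, with exact permutation *p* of 0.0159, 0.0635 and 0.0238. The TLR3-MSC call was lost with quantile normalization, with only the 2 groups fitted, and without control replicate 3, 4 or 5 or TLR3-MSC replicate 4, with *p* up to 0.136.

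C3ar1, the receptor of C3a, was not called in any comparison. Its normalized counts were 1008, 929, 1752, 2223 and 833 in control and 1188, 1538, 864, 345 and 1538 in MSC joints. They were 1015, 1287, 1615, 1041 and 1328 in TLR3-MSC and 955, 1029.9, 1617, 1133 and 713 in STING-MSC joints. The control joints alone spanned most of the range, with replicates 3 and 4 the highest of all 20. The log2 fold change against control was -0.37 (95% interval -1.11 to 0.37), -0.01 (-0.75 to 0.73) and -0.25 (-0.99 to 0.49) in MSC, TLR3-MSC and STING-MSC joints. The rise fitted for C5ar1 lies above the interval of C3ar1 in MSC and STING-MSC joints and inside it in TLR3-MSC joints. The difference between C3ar1 and the C5a receptors was not tested.

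Itgam (CD11b, ENSMUSG00000030786, chr7:127661812-127717664 in GRCm39) and Itgb2 (CD18, ENSMUSG00000000290, chr10:77366086-77401543 in GRCm39) form complement receptor 3, which binds the C3 fragment iC3b and serves adhesion and uptake in neutrophils, monocytes and macrophages. For Itgam the normalized counts were 4612, 3087, 3112, 2466 and 2911 in control and 5255, 3387, 5043, 5459 and 3726 in MSC joints. TLR3-MSC joints had 3959, 3571, 3634, 4416 and 3278, and STING-MSC joints 3645, 3256, 4941, 4213 and 5383. MSC and STING-MSC joints held both high and low values, TLR3-MSC joints spread less, and control replicate 1 was again the highest control. The log2 fold change was 0.50 ± 0.17 (SE, *p* = 0.00834) in MSC joints (exact permutation *p* = 0.0476) and 0.41 ± 0.17 (SE, *p* = 0.0262) in STING-MSC joints (exact permutation *p* = 0.0714), and 0.25 in TLR3-MSC joints (95% interval -0.11 to 0.60). The STING-MSC call was lost without control replicate 4 or 5 or STING-MSC replicate 3 or 5, with *p* up to 0.0818. Itgam overlaps Gm49368, another protein-coding gene of the same strand, so its counts are uncertain to that extent.

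Itgb2 pairs with Itgam and with other integrin chains. Its normalized counts were 16829, 12842, 12334, 10345 and 11546 in control and 19698, 13318, 17902, 18056 and 13570.2 in MSC joints. In the activated groups they were 15884, 13703, 13183, 17165 and 12867 for TLR3-MSC and 15555, 12538, 18719, 16571 and 19485 for STING-MSC. The pattern over joints was that of Itgam, with overlapping groups. Itgb2 had a log2 fold change of 0.37 ± 0.15 (SE, *p* = 0.0224) in MSC joints (exact permutation *p* = 0.0476) and 0.38 ± 0.15 (SE, *p* = 0.0203) in STING-MSC joints (exact permutation *p* = 0.0635). Without control replicate 4, or without MSC replicate 1, 3 or 4 and STING-MSC replicate 3 or 5 in their own comparisons, the calls were lost, with *p* up to 0.0682 and 0.0626. Itgax (CD11c), the partner of Itgb2 in complement receptor 4, was not called and ranged from 306 to 727 normalized counts. Vsig4, the complement receptor of resident macrophages, was not called either, and its log2 fold changes against control lay between -0.01 and 0.69, the highest of which was called in a fit of only the 2 groups.

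**Figure D2:**
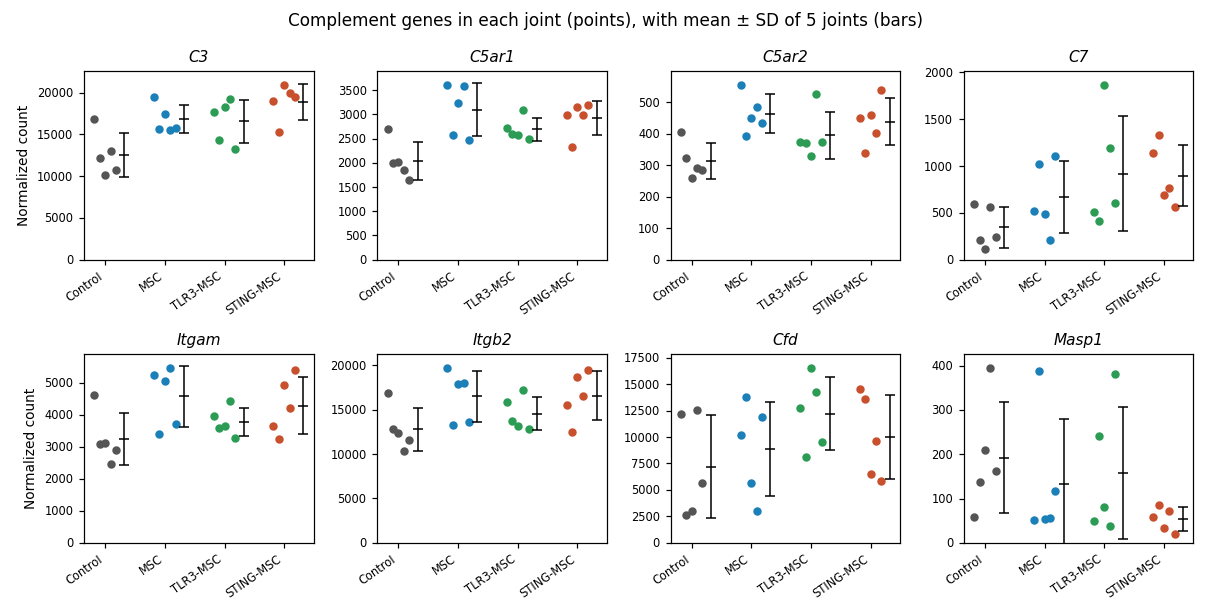
Normalized counts (y axis, from 0) of 8 complement genes in each of the 5 joints of each group (x axis, Control to STING-MSC), with points for joints and bars for the mean ± SD (the lower bar of Masp1 in MSC joints is cut at 0). The first control point of C3, C5ar1, C5ar2, Itgam and Itgb2 is the highest of its group, and the groups overlap in every panel.

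Neutrophil markers moved with these receptors. All 12 markers fixed for that cell type had positive fold changes in each comparison with control, and 9 were called in MSC, 3 in TLR3-MSC and 10 in STING-MSC joints, with median log2 fold changes of 0.56, 0.29 and 0.51. Their summed normalized counts ranged from 402229 to 718794 in control, 576329 to 980385 in MSC, 539380 to 833823 in TLR3-MSC and 575198 to 896811 in STING-MSC joints, and the highest control value was that of replicate 1. None of the 12 macrophage markers was called against control. With the group means subtracted, the mean log2 level of Itgam and Itgb2 followed that of the neutrophil markers over the 20 joints (Pearson's r = 0.96, permutation *p* = 1e-05, the smallest value 100000 permutations can give; Spearman's rho = 0.92, *p* = 2e-05; r = 0.94 without the 2 joints farthest from the marker median; adjusted *p* = 2e-05 over 4 relations). In a second family of 6 relations, chosen after the values were seen, C5ar1 and C5ar2 followed the same markers (r = 0.90, permutation *p* = 3e-05; rho = 0.90, *p* = 5e-05; r = 0.91 without the 2 farthest joints; adjusted *p* = 6e-05). C3 did so less closely (r = 0.59, permutation *p* = 0.0113; rho = 0.50, *p* = 0.0338; r = 0.58 without the 2 farthest joints; adjusted *p* = 0.0135), and its r was 0.46 without control replicate 1. The part of neutrophil markers in the differences of C5ar1, C5ar2, C3, Itgam and Itgb2 was not tested.

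C7 (ENSMUSG00000079105, chr15:5018244-5093223 in GRCm39) joins C5b and C6 on the target membrane. Its normalized counts were 597, 209, 116, 564 and 238 in control and 524, 1025, 489, 206 and 1113 in MSC joints. The TLR3-MSC joints held 511, 416, 1869, 1193 and 606, and the STING-MSC joints 1139, 1331, 696, 767 and 560.3. Control replicates 2, 3 and 5 lay below all treated joints but MSC replicate 4, while control replicates 1 and 4 lay among them. The log2 fold change against control was 1.44 ± 0.51 (SE, *p* = 0.0113) in TLR3-MSC (exact permutation *p* = 0.0635) and 1.57 ± 0.51 (SE, *p* = 0.00645) in STING-MSC joints (exact permutation *p* = 0.0238). In MSC joints it was 0.99 (95% interval -0.08 to 2.06, limma *p* = 0.069, exact permutation *p* = 0.19), and this value was called with quantile normalization, by DESeq2, and without control replicate 1 or 4 or MSC replicate 4. C7 passed both the *p* and a 2-fold threshold in TLR3-MSC and STING-MSC joints, as did 0.331% and 2.06% of all genes.

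The other terminal genes, C6 and Hc, were not called in any comparison, and their relation to C7 was not tested. C6 ranged from 23.4 to 186 normalized counts. Hc, which encodes C5, the source of C5a, had few counts, with 4.23, 6.04, 11.3, 10.0 and 20.4 normalized counts in control and 12.7, 10.1, 12.9, 9.89 and 13.2 in MSC joints. TLR3-MSC joints had 19.4, 19.4, 12.1, 12.4 and 7.91, and STING-MSC joints 6.56, 7.34, 10.4, 21.2 and 21.1. All groups overlapped. For Hc the 95% interval of the log2 fold change was -0.52 to 1.17 in MSC and -0.32 to 1.36 in TLR3-MSC joints. In STING-MSC joints it ran from -0.50 to 1.19. The rises fitted for C7 lie above the intervals of Hc in TLR3-MSC and STING-MSC joints. Changes of Hc inside its intervals are compatible with these few counts.

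Cfd, the alternative pathway protease that adipocytes secrete, varied widely between joints of one group. It had 12194, 2679.6, 2981, 12516 and 5668 normalized counts in control joints and 10165, 13782, 5641, 3008 and 11871 in MSC joints. Its counts were 12699.7, 8085, 16520.1, 14229 and 9519 in TLR3-MSC and 14559, 13556, 6532, 9613 and 5874 in STING-MSC joints. Control replicates 1 and 4 were far above the other 3 control joints, and all TLR3-MSC joints lay above those 3. In TLR3-MSC joints the log2 fold change was 1.01 ± 0.46 (SE, *p* = 0.0416), and the call was not matched by edgeR (*p* = 0.0977), DESeq2 (*p* = 0.0813) or the exact permutation test (*p* = 0.0873). It was also lost without control replicate 2, 3 or 5 or TLR3-MSC replicate 1, 3 or 4, with *p* up to 0.133.

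Adipocyte markers varied with Cfd and C7. Of 10 adipocyte markers 1 was called higher in TLR3-MSC joints and none in MSC or STING-MSC joints, with median log2 fold changes against control of 0.61, 0.28 and 0.57. Their summed normalized counts ranged from 18433 to 34124 in control, 19638 to 36452 in MSC, 22952 to 42396 in TLR3-MSC and 22903 to 39577 in STING-MSC joints. With group means subtracted, Cfd followed these markers over the 20 joints (r = 0.90, permutation *p* = 1e-05; rho = 0.85, *p* = 3e-05; r = 0.86 without the 2 farthest joints; adjusted *p* = 2e-05 over 4 relations). C7 did too, in the family chosen after the values were seen (r = 0.87, permutation *p* = 8e-05; rho = 0.85, *p* = 4e-05; r = 0.90 without the 2 farthest joints; adjusted *p* = 0.00012). The part of fat tissue in the differences of Cfd and C7 was not tested.

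**Figure D3:**
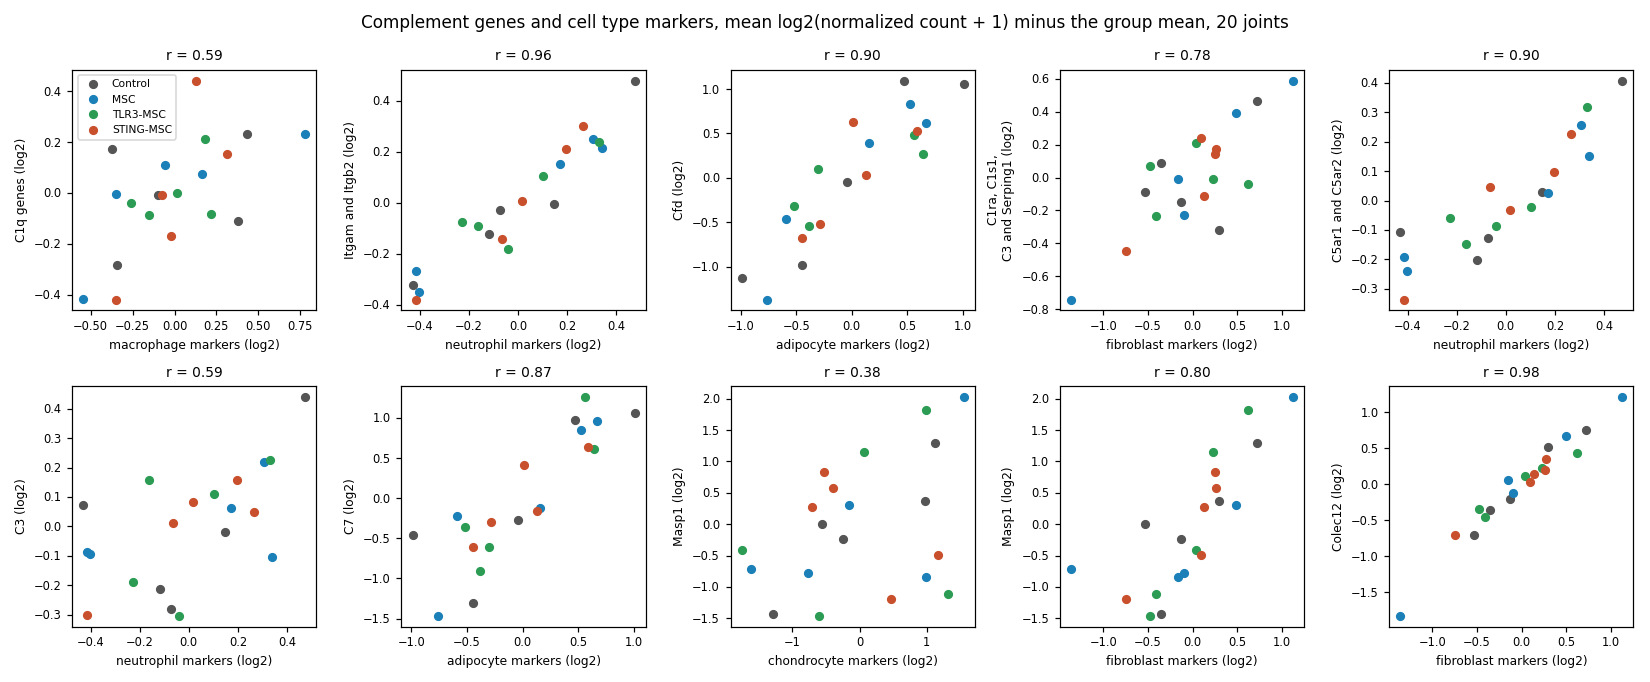
Mean log2(normalized count + 1) of complement genes (y axis) against that of cell type markers (x axis) in 20 joints, both with the group mean subtracted and coloured by group, with Pearson's r above each panel. The points lie closest to a line for Colec12 with fibroblast markers (r = 0.98) and spread most for Masp1 with chondrocyte markers (r = 0.38).

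Properdin (Cfp), which stabilises the alternative pathway convertase and is stored in neutrophils, was called in MSC joints by a small margin. Normalized counts were 4137, 3516, 2977, 2985 and 3714 in control and 5394, 3457, 5348, 4907 and 3111 in MSC joints. In TLR3-MSC joints they were 4217, 3304, 3227, 4505 and 3526, and in STING-MSC joints 4009.8, 3422, 4401, 4443 and 5197. MSC joints split into 3 above and 2 within the control range. In MSC joints the log2 fold change was 0.33 ± 0.16 (SE, *p* = 0.0495) with an exact permutation *p* of 0.127. The call was lost with quantile normalization, with only the 2 groups fitted, and without any one of control replicates 2 to 5 or MSC replicates 1, 3 and 4, with *p* up to 0.138.

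C4b and C2, which form the classical and lectin convertase, were not called. C4b had 6449.9, 4879.6, 4344, 8570.4 and 5489 normalized counts in control joints and 7424, 10758, 5163, 2778 and 9157 in MSC joints. TLR3-MSC joints had 6935, 7635, 9526, 9487 and 6689.9, and STING-MSC joints 7836, 8812, 10882, 8039 and 5096. The lowest value was that of MSC replicate 4 and the groups overlapped widely, with log2 fold changes against control of 0.14, 0.46 and 0.45 and intervals that all included 0. The TLR3-MSC value was called in a fit of only the 2 groups. Reads of the near-identical C4a could have been counted with C4b, so its level is uncertain. C2 had at most 69.9 normalized counts, and it overlaps Gm20547, another protein-coding gene of the same strand, so its level is uncertain too.

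The 3 chains of C1q, which macrophages make, were among the highest complement transcripts and differed little. C1qa had 8192, 6604, 9142, 9918 and 7524 normalized counts in control joints and 10078, 9218, 8642, 5823 and 8759 in MSC joints. It had 8181, 8165, 10561, 8724 and 8633 in TLR3-MSC and 7483, 8289, 11062, 9197 and 6023 in STING-MSC joints. The groups lay on top of each other, and STING-MSC joints held both the highest value and, beside MSC replicate 4, one of the lowest.

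The other chains gave a like picture. C1qb had 7114, 6130.1, 8356, 8326 and 6789.6 normalized counts in control and 8594, 8015, 7979.5, 5840.3 and 6899 in MSC joints. It had 7382, 7113, 8570.4, 7634 and 7393 in TLR3-MSC and 6512, 7509, 10516, 8512 and 5859 in STING-MSC joints. For all 3 chains STING-MSC replicate 3 was the highest joint. C1qc had 7259, 5876, 8024, 8406 and 6675 in control and 8581, 7787, 7779.5, 5685 and 7520.0 in MSC joints, and 7022, 7274, 8647, 7564 and 7305 in TLR3-MSC and 6632, 7244, 9859, 8042 and 5439 in STING-MSC joints. Over the 3 chains and the 3 comparisons with control, the log2 fold changes ranged from 0.01 to 0.11, and the widest 95% interval, that of C1qa, reached from -0.23 to 0.44 in TLR3-MSC joints. A rise of C1qa of the size fitted for C3 in STING-MSC joints (0.60) lies outside its interval there (-0.33 to 0.34). The mean level of the C1q genes and that of 12 macrophage markers gave r = 0.59 with group means subtracted (permutation *p* = 0.0135; rho = 0.52, *p* = 0.0336; adjusted *p* = 0.0135 over 4 relations), which fell to 0.45 (*p* = 0.0908) without the 2 joints farthest from the marker median, so the call depends on those joints.

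The proteases of the C1 complex, C1ra and C1s1, and the related C1rl were not called in any comparison, with log2 fold changes against control between -0.27 and 0.16 for these 3 genes. Reads of the copies C1rb and C1s2 could have been shared with C1ra and C1s1. C1ra, C1s1, C3 and Serping1, which stromal cells express, had a mean level that followed 10 fibroblast markers (r = 0.78, permutation *p* = 0.00145; rho = 0.60, *p* = 0.0154; r = 0.57 without the 2 farthest joints; adjusted *p* = 0.00193 over 4 relations). The fibroblast markers had a median log2 fold change of -0.79 in STING-MSC joints, with 2 of 10 called lower. There 3 of the 10 had positive fold changes, up to 0.56. In TLR3-MSC joints the median was 0.07, with 2 called higher. The relation over the joints is that of the mean of the 4 genes. C3 alone was not set against the fibroblast markers, so the relation does not show that C3 followed them. C3 was higher in STING-MSC joints, where the median of these markers was lower. The part of these markers in the difference of C3 was not tested.

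In the lectin pathway, Masp1 (ENSMUSG00000022887, chr16:23268167-23339566 in GRCm39), the protease bound to collectins and ficolins, was lower in STING-MSC joints. It had 59.3, 137, 209, 395 and 161 normalized counts in control joints and 52.3, 388, 54.7, 56.9 and 117 in MSC joints. TLR3-MSC joints had 48.9, 240.2, 80.4, 38.3 and 382, and STING-MSC joints 57.7, 85.6, 33.4, 71.2 and 20.1. The STING-MSC joints were uniformly low, whereas each other group mixed low joints with a highest joint between 382 and 395. Against control the log2 fold change was -1.74 ± 0.67 (SE, *p* = 0.0181), or 3.34-fold lower, with an exact permutation *p* of 0.0238. The call was lost without control replicate 4 or STING-MSC replicate 5, with *p* up to 0.0566. Chondrocyte markers also varied widely, with a summed level from 24954 to 64978 in STING-MSC and from 23678 to 147481 in control joints, and none of 6 was called. Their relation to Masp1, chosen after the values were seen, gave r = 0.38 (permutation *p* = 0.155; rho = 0.34, *p* = 0.194; r = 0.25 without the 2 farthest joints; adjusted *p* = 0.155). Fibroblast markers moved with Masp1 more closely. Their summed level was 178865 to 416952 in STING-MSC and 415726 to 1490600.1 in control joints. Prg4 and Col1a1 were the largest parts of that sum, and 3 of the 10 markers had positive fold changes in STING-MSC joints. Over the 20 joints Masp1 followed the mean log2 level of the markers in the same family (r = 0.80, permutation *p* = 1e-05; rho = 0.85, *p* = 1e-05; r = 0.84 without the 2 farthest joints; adjusted *p* = 3e-05). The part of either tissue in the difference of Masp1 was not tested. Masp1 overlaps Rtp4 on the other strand, and whether counting used strand was not given in the sources used here.

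Colec12, a collectin on endothelial and stromal cells, was the only complement gene with non-overlapping groups. It had them only in the comparison of STING-MSC with TLR3-MSC joints. Its normalized counts were 4275, 6821, 6338, 4611 and 7907 in TLR3-MSC and 3588, 3720, 3318, 4143 and 1996 in STING-MSC joints. All STING-MSC joints lay below all TLR3-MSC joints, as for 1.12% of all genes. The log2 fold change was -0.84 (95% interval -1.71 to 0.03, *p* = 0.0576 by limma, exact permutation *p* = 0.00794). Groups that do not overlap always give this smallest exact *p*. Colec12 was picked because its groups did not overlap, so the exact *p* is no separate support. MSC joints ranged from 1058 to 8713 and control joints from 3203 to 8844, which gave the fit over all groups its wide spread. In STING-MSC against TLR3-MSC joints 9 of the 10 fibroblast markers had lower fitted levels as well, with a median log2 fold change of -0.57 and 1 called lower. Colec12 followed these markers closely over the 20 joints, again in the family chosen after the values were seen (r = 0.98, permutation *p* = 1e-05; rho = 0.98, *p* = 1e-05; r = 0.96 without the 2 farthest joints; adjusted *p* = 3e-05). Their part in the difference of Colec12 was not tested. Colec11 had at most 51.0 normalized counts and had a log2 fold change of -0.71 in STING-MSC against control joints (*p* = 0.0561 by limma, exact permutation *p* = 0.111), a value that was called by edgeR, DESeq2 and in 5 other settings. Fcna, a ficolin of macrophages, was not called.

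The regulators and clearance proteins, which limit complement on host cells or bind its products, did not pass the test. None of the 6 was called in any comparison by limma over all joints, and their log2 fold changes against control ranged from -0.32 for Clu (clusterin) in STING-MSC joints to 0.25 for Serping1 (C1 inhibitor) in TLR3-MSC joints. Cd55, which breaks up convertases, had 3056, 3285, 2807, 3239 and 2834 normalized counts in control joints and 2819, 4009, 2763, 1957 and 4745 in MSC joints. Its counts were 2914, 3231, 4649, 3211 and 3764 in TLR3-MSC and 2862, 3829, 3209.7, 3513 and 2319 in STING-MSC joints. Control joints were alike and lay inside the range of the MSC and the STING-MSC joints. Cr1l (Crry), the membrane regulator of mouse cells, had the narrowest spread, from 1955 to 2439 normalized counts over all joints, and its 95% interval in TLR3-MSC joints ran from -0.00107 to 0.25. Cr1l was called there by edgeR, by DESeq2 and without control replicate 4, and Clu was called lower in MSC joints without MSC replicate 2. Cd59a, which blocks the pore, and C1qbp, a C1q-binding protein, had log2 fold changes between -0.15 and -0.06. Reads of Cd55b and Cd59b could have been shared with Cd55 and Cd59a.

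Between the MSC treatments none of the 31 complement genes was called by limma, against 4.94% of all genes for STING-MSC with MSC, 3.88% for TLR3-MSC with MSC and 2.57% for STING-MSC with TLR3-MSC. The largest fitted differences were those of Masp1, with log2 fold changes of -1.16 in STING-MSC against TLR3-MSC joints and -0.98 against MSC joints, and that of Colec12. Both genes were called in STING-MSC against TLR3-MSC joints by edgeR, which called 4.09% of all genes, and by DESeq2, which called 4.57%. Masp1 was also called by DESeq2 in STING-MSC against MSC joints, as were 6.26% of all genes, and the exact permutation test of Masp1 in STING-MSC against TLR3-MSC joints gave *p* = 0.183. For C3, C5ar1 and C7 the 95% intervals of STING-MSC against TLR3-MSC ran from -0.09 to 0.48, -0.16 to 0.39 and -0.94 to 1.21. Differences inside these intervals are compatible with the data, so the lack of a call does not show equal levels.

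Per length of transcript, the complement genes spanned more than 3 orders of magnitude. In control joints the mean normalized count per kb of the canonical transcript was 7668 ± 5151 for Cfd, 7614 ± 1201 for C1qa, 5349 ± 958 for Clu, 4303 ± 826 for Itgb2, 3935 ± 1138 for Serping1 and 3914 ± 550 for C1qc (SD, n = 5). Neighbours in this order overlapped within 1 SD except C1qa and Clu. The lowest was Hc at 1.91 ± 1.16, followed by C2 (19.2), Colec11 (19.6), C6 (34.9) and Masp1 (35.9). The place of C2 is uncertain because it overlaps Gm20547 on the same strand. C5ar1 stood at 803 per kb and C5ar2 at 88.0 per kb, with C3ar1 between them at 269 per kb.

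**Figure D4:**
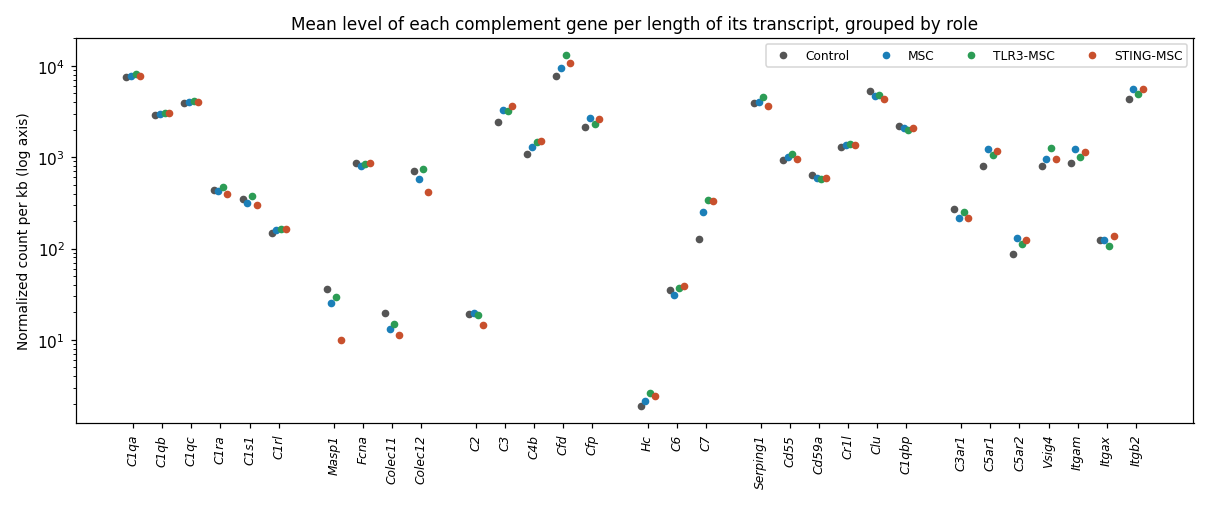
Mean normalized count per kb of transcript (y axis, log scale) of each of the 31 complement genes (x axis, grouped by role) in the 4 groups, 5 joints each. Cfd and C1qa are the highest in control joints and Hc the lowest, and the 4 groups lie close together for most genes, with Masp1 and C7 spread widest.

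The promoter sequences of the genes called in at least 2 comparisons with control are shown. All of these genes were called higher in STING-MSC joints, while the other treated groups in which they were called differed between genes. Of 6 such genes 5 had an entry in the RefSeq promoter table (GRCm38.p6), Itgb2 being the other. Each sequence is the 250 bases before the RefSeq start, 5′ to 3′ on the strand of the gene, and each matched GRCm39 exactly once. The window of C5ar1 lay mostly inside the gene as deposited and is not shown, and for C5ar2 only the outer of its windows is shown. The positions in GRCm39 are chr17:57535137-57535386 for C3 (minus strand), chr7:15978080-15978329 for C5ar2 (minus strand), chr15:5093256-5093505 for C7 (minus strand) and chr7:127661562-127661811 for Itgam (plus strand). Capitals mark matches, on either strand, to the motifs of C/EBP (TTGCNNAA), PU.1 (GAGGAA), GAS (TTCNNNGAA) and ISRE (GAAANNGAA).
C3: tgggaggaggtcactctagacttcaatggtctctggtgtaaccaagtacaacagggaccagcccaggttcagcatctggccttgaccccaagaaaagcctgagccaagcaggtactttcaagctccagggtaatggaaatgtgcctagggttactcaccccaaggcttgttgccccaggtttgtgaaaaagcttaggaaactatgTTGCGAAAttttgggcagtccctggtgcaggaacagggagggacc
C5ar2: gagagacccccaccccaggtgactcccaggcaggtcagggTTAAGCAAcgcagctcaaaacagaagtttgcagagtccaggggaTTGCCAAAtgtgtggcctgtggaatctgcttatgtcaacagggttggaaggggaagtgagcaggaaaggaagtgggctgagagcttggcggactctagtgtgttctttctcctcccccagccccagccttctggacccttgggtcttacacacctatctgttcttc
C7: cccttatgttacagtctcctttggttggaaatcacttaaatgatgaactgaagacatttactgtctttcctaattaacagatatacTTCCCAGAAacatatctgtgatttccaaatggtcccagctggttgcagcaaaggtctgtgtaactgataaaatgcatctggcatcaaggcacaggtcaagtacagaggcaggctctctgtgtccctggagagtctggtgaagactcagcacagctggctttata
Itgam: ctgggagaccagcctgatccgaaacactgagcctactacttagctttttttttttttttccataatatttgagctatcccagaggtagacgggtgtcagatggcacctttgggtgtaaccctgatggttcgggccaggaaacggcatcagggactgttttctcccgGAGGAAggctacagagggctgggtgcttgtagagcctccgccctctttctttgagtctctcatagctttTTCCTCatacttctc

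The capitals are 1 C/EBP match in C3, 2 C/EBP matches in C5ar2, 1 GAS match in C7 and 2 PU.1 matches in Itgam, and no match overlapped another. The C/EBP letters were found in 9.56% of all 32851 promoter windows of this length, the PU.1 letters in 23.3%, GAS in 7.02% and ISRE in 7.13%. Over the 25 windows of the 23 complement genes with an entry, 4 held C/EBP, 7 PU.1, 2 GAS and 3 ISRE. A match is a description of letters in the window and not of binding.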

How the data were processed

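Bulk RNA sequencing was performed by the authors on whole knee joint tissue of 20 mice, with 5 joints in each of 4 groups taken from the sample labels. Per the labels and the methods, polyA RNA libraries were aligned to GRCm39 with STAR (version 2.7.3a), counted per gene with HTSeq on the Ensembl annotation and analysed with DESeq2. A strand setting and a filter on low counts are not given in the sources used here. The authors deposited normalized counts, a signal obtained by dividing the counts of a joint by its median-ratio size factor, and 14793 genes were listed. Low values of a joint rose in steps of 1 read, with 99.8% to 99.9% of values within 0.1 of a whole read, so whole reads were recovered. The totals per joint were 27955496 to 52529973 reads, and counting error limits mainly the genes with few reads.

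The complement genes were found by symbol. Genes were compared with limma (version 3.58.1, R 4.3.3) on log2(normalized count + 1), with its mean-variance trend, over all 20 joints without a block, with no filter on low values and FDR by the Benjamini-Hochberg method over all genes. limma was used in place of a test of counts because the deposited values are normalized. A call is an unadjusted *p* of at most 0.05. Single genes were also compared with exact two-sided permutation tests, and relations to marker lists used 100000 permutations within groups after group means were subtracted. Each result was recomputed with quantile normalization, with pseudocounts of 0.5 and 5, with a minimum mean of 20, in a fit of only the 2 groups, with a replicate block, and without each joint in turn. The recovered reads were also tested with DESeq2 (version 1.42.0) and with the quasi-likelihood test of edgeR (version 4.0.16). Levels per kb used the canonical transcript of GENCODE. The tests were tested on simulated counts.

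The members, the marker lists and the rule for named genes were chosen with earlier results of these data known. By that rule every complement gene is accounted for by role, and values per joint are given for genes called in any of the 6 comparisons and for C1qa, C1qb, C1qc, C3, C4b, Hc, C3ar1, C5ar1, Cfd and Cd55. Colec12 is given with values because its STING-MSC and TLR3-MSC joints did not overlap, which was seen in the values. The joints are from different mice, and no 2 joints of the same group agreed within sampling noise.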

Additional observations from a re-analysis of the deposited data

Results flagged for a closer look

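In 4 of the 64 groups of 5 joints that were examined (16 complement genes with values per joint, 4 groups each), 1 joint stood far from the rest by Dixon's test at its 95% critical value of 0.71 for 5 values. Chance flags about 1 group in 20. TLR3-MSC replicate 3 had 10561 normalized counts of C1qa, beside 8165 to 8724 in the other TLR3-MSC joints. STING-MSC replicate 2 was low for C5ar1, with 2330.1 normalized counts beside 2991 to 3197. TLR3-MSC replicate 4 had 525 normalized counts of C5ar2, beside 329.8 to 373 in the rest of its group. MSC replicate 2 had 388 normalized counts of Masp1, beside 52.3 to 117 in the other MSC joints.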

How the results depend on the processing

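Of the 3342 values of the 31 complement genes under the alternatives, 3267 kept their side of the threshold, 39 were newly called and 36 lost their call. The sign changed for 208 values, none of them called in either fit. In STING-MSC against MSC joints DESeq2 called 1 gene (Masp1, with 6.26% of all genes) where limma called 0. In STING-MSC against TLR3-MSC joints quantile normalization and the fit of only the 2 groups each called 1 gene (Colec12, 3.23% of the 31, with 2.7% and 8.5% of all genes), and edgeR and DESeq2 each called 2 (Colec12 and Masp1, 6.45%, with 4.09% and 4.57% of all genes). The cause was not tested. With 1 joint left out, the count of called genes ranged from 4 to 8 in the comparison of MSC with control joints, from 3 to 6 in that of TLR3-MSC and from 4 to 10 in that of STING-MSC joints, from 0 to 0 for STING-MSC against MSC, 0 to 3 for TLR3-MSC against MSC, 0 to 1 for STING-MSC against TLR3-MSC and 3 to 7 across the 4 groups. The share of all genes called moved too, in the same order from 5.76% to 16.7%, 2.03% to 5.48%, 5.87% to 15.7%, 3.91% to 6.66%, 2.45% to 9.98%, 0.973% to 5.12% and 4.2% to 11.2%. The count for TLR3-MSC against control was 3 without control replicate 3 or 5 or TLR3-MSC replicate 4, and that for STING-MSC was 4 without control replicate 4 or STING-MSC replicate 5. Without MSC replicate 2, 3 genes were called in TLR3-MSC against MSC joints (C1s1, Colec12 and Itgam, 9.68%, beside 9.98% of all genes), and 1 was called there without MSC replicate 5 (Cfp) or TLR3-MSC replicate 4 (C5ar2). The 1 gene called in STING-MSC against TLR3-MSC joints was Colec12 without TLR3-MSC replicate 1 and Masp1 without TLR3-MSC replicate 4. Across the 4 groups the count was 3 without control replicate 2, 3 or 5. The relation of C1q genes to macrophage markers fell to r = 0.45 without the 2 farthest joints. That of C3 to neutrophil markers was 0.40 with a replicate block and 0.46 without control replicate 1, and ranged from 0.46 to 0.68 with 1 joint left out.

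Same-numbered joints were different mice, and the correlation of their deviations from the group means averaged -0.14 to 0.11 over the 6 comparisons, so the numbers were not taken as pairs. With the replicate number as a block, limma called 6, 5 and 8 complement genes in MSC, TLR3-MSC and STING-MSC joints against control, 0 in each comparison between MSC treatments, and 4 across the 4 groups, beside 7.9%, 3.2% and 10.8% of all genes against control and 5.39% across the groups. With 5 joints a group, differences within the intervals given remain compatible with the data.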

Other observations

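A wider list of 34 complement genes outside the 33, of which 15 were analysed, held 4 genes called in some comparison by limma, none of them at an FDR of at most 0.05. Against control, 0, 1 and 3 of the 15 were called in MSC, TLR3-MSC and STING-MSC joints, beside 8.55%, 3.58% and 12.2% of all genes. For STING-MSC against MSC 2 were called (4.94% of all genes), for TLR3-MSC against MSC 0 (3.88%) and for STING-MSC against TLR3-MSC 2 (2.57%). Colec10, a collectin of the lectin pathway, was higher against control in TLR3-MSC (log2 fold change 1.96 ± 0.70, SE, *p* = 0.0119, exact permutation *p* = 0.0556) and STING-MSC joints (2.58 ± 0.70, *p* = 0.00165, exact permutation *p* = 0.0159). Its counts were low, at 2.12, 1.21, 2.51, 2.74 and 5.44 normalized counts in control and 28.8, 35.5, 16.7, 38.7 and 4.80 in STING-MSC joints. STING-MSC replicates 1 to 4 lay above all control joints, and STING-MSC replicate 5 lay among them. TLR3-MSC joints had 18.5, 1.62, 46.9, 25.9 and 6.78, and MSC joints 10.1, 4.21, 7.96, 3.30 and 22.4.

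Fcnb, a ficolin of neutrophil granules, was higher in STING-MSC than in control joints (log2 fold change 0.54 ± 0.21, *p* = 0.0173, exact permutation *p* = 0.0317), where 10 of 12 neutrophil markers were called as well, and their part in the result was not tested. Cpn1, a subunit of the carboxypeptidase that inactivates C3a and C5a, had 6.56, 15.9, 6.26, 5.00 and 0 normalized counts in STING-MSC joints. It was lower there than in control (log2 fold change -2.03 ± 0.74, *p* = 0.0133, exact permutation *p* = 0.0397), MSC (-1.56 ± 0.74, *p* = 0.0492, exact *p* = 0.0556) and TLR3-MSC joints (-1.57 ± 0.74, *p* = 0.0488, exact *p* = 0.151). In control joints Cpn1 had 11.6, 23.0, 40.2, 54.8 and 8.16. The groups overlapped in each of these comparisons. C8g, a chain of the terminal component C8, was higher in STING-MSC than in MSC (0.54 ± 0.17, *p* = 0.00438, exact permutation *p* = 0.0159) and TLR3-MSC joints (0.41 ± 0.17, *p* = 0.0226, exact *p* = 0.0238), but it overlaps Fbxw5 on the other strand, so its counts are uncertain. The other 11 genes of this list were not called in any comparison.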
